A study of Mus musculus with 8 samples.

Results

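The endothelin system was followed here in pancreatic tumour cells through 7 genes of the 24537 in the count table: the receptors Ednra and Ednrb, the peptide ligands Edn1, Edn2 and Edn3, and the converting enzymes Ece1 and Ece2. The genes were chosen by family membership, and the family was selected on its levels in these libraries, because Ednrb was known to differ between the study's groups. The difference between KO-labelled and WT-labelled tumours is therefore given for the 7 genes as a description, with no test. The data are RNA sequencing of 8 pancreatic tumours of FVB/NJ mice aged 44 to 49 days, dissociated and sorted by FACS for EpCAM+ cells, with 1 library per tumour. Every mouse, controls included, carried Trp53f/f, Rosa26LSL-Luc (a luciferase reporter) and Pdx1-Cre. The 4 KO-labelled tumours were also Lifrf/f, so that Cre could delete both copies of Lifr, which encodes a receptor chain for the cytokine LIF. Of the 4 WT-labelled tumours, those numbered 1 and 2 were f/+ for Lifr, with 1 floxed allele, and those numbered 3 and 4 were +/+. The Pdx1 promoter drives Cre in pancreatic epithelium, and macrophages, fibroblasts and vessel cells are not its target.

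Endothelins are short vasoactive peptides that are cut from longer precursors, first by furin-type proteases and then by the membrane-bound endothelin-converting enzymes. They act on a pair of G-protein-coupled receptors. The type A receptor is best known from vascular smooth muscle and pericytes, where it drives contraction, and the type B receptor from endothelium, neural crest, Schwann cells and some macrophages, where it also removes the peptide from its surroundings. In pancreatic tumours endothelin-1 has been studied mostly as a signal between carcinoma cells and the surrounding stroma.

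The libraries held 14938875 to 22698340 gene counts each, and levels are given as counts per 1000000 (CPM) after TMM scaling, a correction for RNA composition. The labelled cell type was present in every library, with Epcam at 360 to 499 CPM in KO-labelled tumours and 660 to 890 CPM in the WT-labelled tumours. RNA of other cells was present as well. The summed level of 16 macrophage markers was 25090 to 31720 CPM in KO-labelled tumours and 10130 to 17620 CPM in the WT-labelled tumours, led by Lyz2, Ctss and Mrc1. The 17 epithelial markers, led by Krt18, Cdh1 and Krt7, summed to 3745 to 5258 CPM and 7105 to 9555 CPM, in the same order. Lifr itself stood higher in the libraries labelled KO, at 183 ± 34.5 against 97.8 ± 22.2 CPM (SD, n = 4 each), and the labels do not say which exon is floxed. In bulk RNA, fewer cells of a type and less RNA per cell cannot be told apart.

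Between the KO-labelled and WT-labelled tumours, Ednrb was the member that stood apart. In the edgeR quasi-likelihood test 3216 of 14728 tested genes passed 0.05 after Benjamini-Hochberg adjustment and count as called, which is 21.8%, with 1630 higher (11.1%) and 1586 lower (10.8%) in KO-labelled tumours. With library totals alone in place of TMM the split was 900 higher and 3108 lower. Of the 7 members, 6 passed the filter on low counts, and 1 of those, Ednrb, was called, in the higher direction. The 4 values of a group lay outside the range of the other group for 1 of the 6 members, and for 25.5% of all tested genes. Because this contrast was known when the genes were chosen, nothing is read from these member counts. The median log2 fold change was −0.07 over the 6 members and 0.01 over all tested genes. The member median lies between Ece1, at −0.32, and the row labelled Ece2, at 0.17. As explained below, that row counts Eef1akmt4 transcript reads.

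Ednrb, which encodes the type B receptor (NM_007904, mm10 chr14:103814615-103843701, minus strand), was abundant in every KO-labelled tumour. Its level there was 328, 494, 270 and 295 CPM in replicates 1 to 4. In WT-labelled tumours it was 49.96, 24.0, 19.5 and 53.4 CPM. The lowest KO-labelled tumour was thus above the highest labelled WT, and replicate 2 was the highest of all. The group means were 346.6 ± 101 and 36.7 ± 17.4 CPM (SD, n = 4 each), a 9.45-fold difference and a log2 fold change of 3.24 ± 0.38 (SE). Leaving out each tumour in turn gave log2 fold changes of 3.02 to 3.48. The 2 f/+ and 2 +/+ tumours did not fall into separate ranges, since the pair at about 50 CPM was made of 1 tumour of each genotype.

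**Figure D1:**
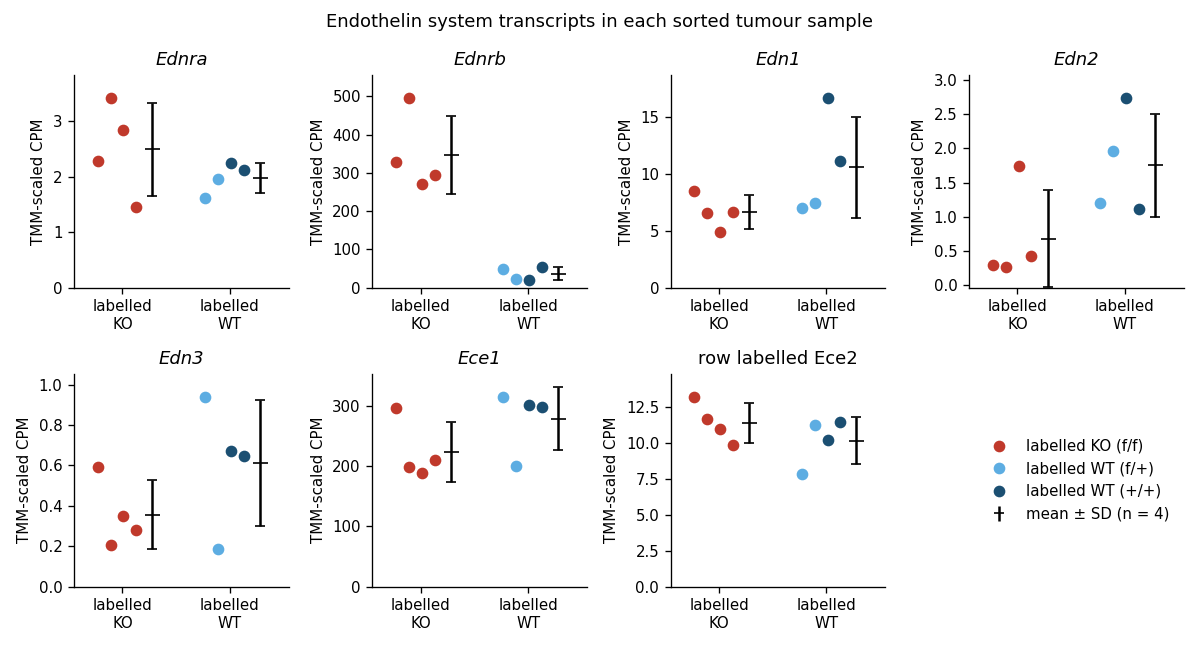
TMM-scaled CPM of each endothelin gene (y axes, linear, one scale per panel) in KO-labelled and WT-labelled tumours; points are tumours and bars are the mean ± SD of 4. The Ednrb panel is the one without overlap, at 270 to 494 against 19.5 to 53.4 CPM, and the panel for the row labelled Ece2 shows Eef1akmt4 transcript reads, as explained in the text.

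Several cell types that can carry Ednrb were looked at beside it. The 14 markers of tissue-resident macrophages, led by Stab1, F13a1 and Retnla, summed to 5050 to 7033 CPM in KO-labelled tumours and 837 to 2491 CPM in the WT-labelled tumours, and 11 of 14 rose. This list was drafted with earlier results of these data known. Replicate 2 had the highest and replicate 3 the lowest sum among KO-labelled tumours, as they did for Ednrb. Among WT-labelled tumours, replicate 4 had the highest and replicate 3 the lowest of both. Set against that list, Ednrb was 4.75% to 7.03% of the summed level in KO-labelled tumours and 1.81% to 2.76% in the WT-labelled ones. These ranges did not overlap, but Ednrb was known to differ between the groups, so its ratio is a description only. That ratio depends on the genes that lead the sum. The log2 fold change was 1.95 for Stab1 and 1.78 for F13a1, and over the 14 markers it ran from 0.91 to 3.59. The highest was that of Retnla, above the 3.24 of Ednrb. Against the 16 macrophage markers, of which 15 rose, the corresponding shares were 0.994% to 1.57% and 0.180% to 0.359%. The part of macrophage RNA in the Ednrb difference was not tested.

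**Figure D2:**
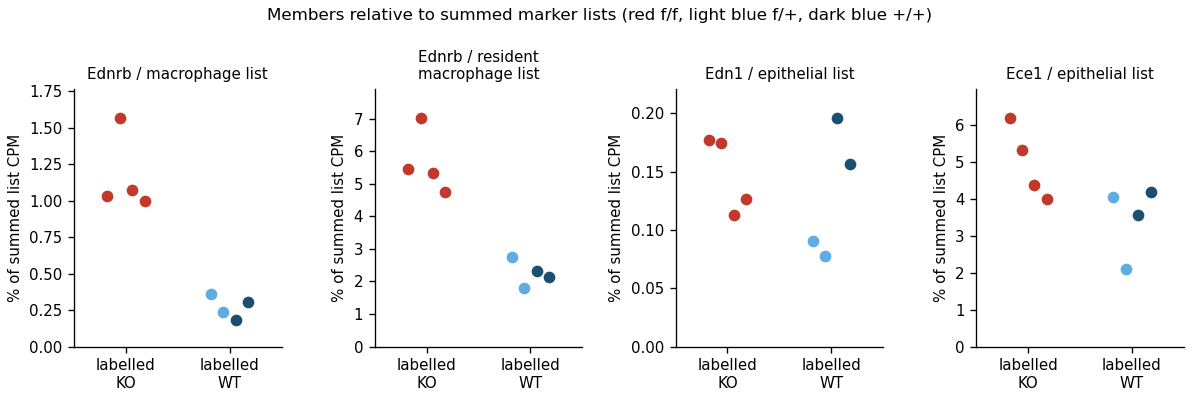
Level of a member as a percentage of the summed CPM of a marker list (y axes, linear) in each tumour, for KO-labelled and WT-labelled tumours. Ednrb shows no overlap between groups against either macrophage list, while Edn1 and Ece1 against the epithelial list overlap. Ednrb was known to differ between the groups when it was chosen.

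Markers of endothelial and Schwann cells, which can also carry the type B receptor, were measured in the same way. The 15 endothelial markers, led by Vwf, Pecam1 and Kdr, summed to 36.9 to 51.6 CPM in KO-labelled tumours and 41.9 to 67.8 CPM in the WT-labelled tumours. In each KO-labelled tumour the level of Ednrb was above that sum, which depends on the genes listed. Of the WT-labelled tumours, replicate 1 had Ednrb above the sum, at 49.96 against 46.15 CPM. Replicates 2, 3 and 4 had it below, at 24.0, 19.5 and 53.4 against 41.87, 45.05 and 67.81 CPM. The 12 Schwann and neural crest markers, led by Mbp, Mpzl1 and Erbb3, summed to 180 to 232 CPM and 272 to 383 CPM, and 4 of the 8 tested fell. The more specific genes of that list were at or near 0, with Sox10 at most 0.104 CPM and Cdh19 at most 0.140 CPM in any tumour. Mast cell markers, led by Kit, Hdc and Mcpt4, summed to 30.2 to 40.2 CPM and 27.6 to 37.7 CPM. Kit alone averaged 23.5 CPM over the 8 tumours, and 5 of the 10 listed markers passed the filter on low counts. The part of these cell types in the Ednrb level was not tested.

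The genes whose profiles over the 8 tumours were closest to that of Ednrb were Nxpe5, Cd209f, Lyz1, Dpt and Folr2. Likeness was measured as the root-mean-square difference of log2 CPM after each gene's mean was subtracted, so the difference between the groups enters it. These differences were 0.43 for Nxpe5, 0.49 for Cd209f, Lyz1 and Dpt, and 0.53 for Folr2, against a median of 1.75 over all tested genes. Folr2, a folate receptor of macrophages, was at 210 to 420 CPM in KO-labelled tumours and 13.04 to 109 CPM in the WT-labelled tumours. Cd209f, a C-type lectin, was at 30.3 to 84.5 CPM and 2.46 to 16.6 CPM. Both are on the tissue-resident macrophage list, and Dpt, a matrix protein at 4.26 to 19.0 CPM and 0.538 to 2.59 CPM, is on the fibroblast list. Lyz1 is a near copy of the macrophage lysozyme Lyz2, so its reads may be shared between both genes.

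**Figure D3:**
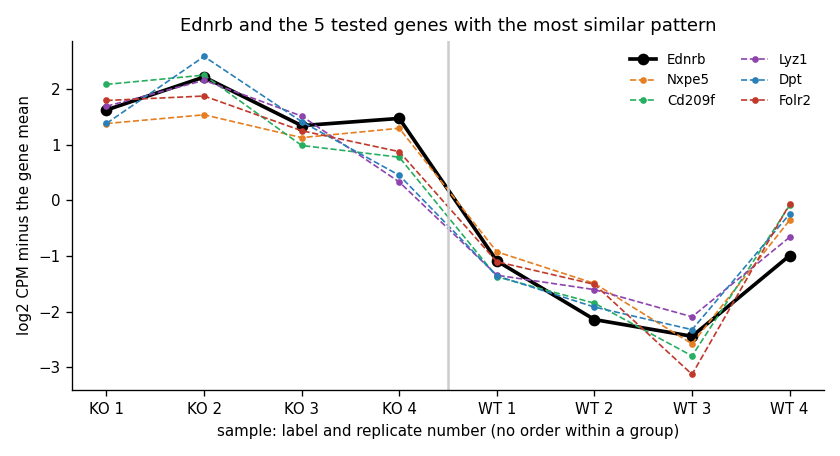
Log2 CPM of Ednrb and its 5 closest genes in each of the 8 tumours, with each gene's mean over the tumours subtracted (y axis); lines join the values of a gene and do not show an order of tumours. All 6 genes sit above their mean in the KO-labelled tumours and below it in the WT-labelled tumours.

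Ednra, the type A receptor gene (NM_010332, mm10 chr8:77663029-77724452, minus strand), was scarce. It was measured at 2.28, 3.41, 2.85 and 1.45 CPM in KO-labelled tumours and at 1.61, 1.96, 2.24 and 2.12 CPM in the WT-labelled tumours. The KO-labelled tumours spanned both the lowest and the highest value, so the groups overlapped. The means were 2.50 ± 0.836 and 1.98 ± 0.272 CPM, with a log2 fold change of 0.32 ± 0.28 that ran from 0.14 to 0.50 as each tumour was left out. Each library held 31 to 50 Ednra counts, and 91 bases of its exons overlap 4933431K23Rik on the opposite strand. The 13 pericyte and smooth muscle markers, led by Rgs5, Mcam and Acta2, summed to 94.5 to 201 CPM and 118 to 151 CPM, with replicate 2 highest and replicate 4 lowest among KO-labelled tumours, as for Ednra. Fibroblast markers, led by Col3a1, Col1a1 and Col1a2, summed to 861 to 4469 CPM and 440 to 1593 CPM and had the same highest and lowest KO-labelled tumours. Among the WT-labelled tumours the order was another, since replicate 3 had the highest Ednra level and the lowest sum of both lists. Their part in the Ednra values was not tested. The closest profiles were those of Narf, Hcfc2, Rarb, Rpl15 and Prelid2, at root-mean-square differences of 0.126 to 0.149 against a median of 0.443.

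The balance of both receptors differed with Ednrb. Per kilobase of the counted transcript, Ednrb was 86.1 to 185 times the level of Ednra in KO-labelled tumours and 7.91 to 28.1 times in the WT-labelled tumours. As a share of both, Ednrb made up 98.9% to 99.5% and 88.8% to 96.6%. The type B receptor transcript was thus the more abundant one in all 8 tumours.

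The 3 ligand genes encode closely related 21-residue peptides. Their mature coding stretches are shown to make clear how far the transcripts differ. Each lies in exon 2 of 5, on the plus strand of GRCm38 (mm10), and was read from the GENCODE M21 transcripts. Capitals mark the bases that differ from Edn1.
Edn1 (chr13:42303649-42303711): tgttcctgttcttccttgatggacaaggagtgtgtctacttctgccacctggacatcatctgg
Edn2 (chr4:120161951-120162013): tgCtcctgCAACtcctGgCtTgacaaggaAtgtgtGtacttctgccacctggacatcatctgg
Edn3 (chr2:174761749-174761811): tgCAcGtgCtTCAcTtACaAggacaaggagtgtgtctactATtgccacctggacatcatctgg
Edn2 differs from Edn1 at 10 of the 63 bases, which changes 3 residues, and Edn3 differs at 13 bases, which changes 6 residues. The last 21 bases are the same in all 3, and 45 positions are shared in all.

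Edn1, the gene of endothelin-1 (NM_010104, mm10 chr13:42301476-42307990, plus strand), was the most abundant ligand transcript in every tumour. Its level was 8.47, 6.55, 4.86 and 6.65 CPM in KO-labelled tumours and 6.98, 7.45, 16.6 and 11.1 CPM in the WT-labelled tumours. All 4 KO-labelled tumours were below the median of the WT-labelled tumours, but replicate 1 labelled KO was above 2 WT-labelled tumours, both f/+. The means were 6.63 ± 1.48 and 10.5 ± 4.44 CPM, with a log2 fold change of −0.67 ± 0.30. Against the f/+ tumours alone the log2 fold change was −0.12, and against the +/+ tumours alone −1.06. Scaled to the epithelial marker list, which lifted the median gene to 0.88, it was 0.18, or −0.69 relative to that median. As a percentage of the epithelial list, Edn1 overlapped between groups at 0.113% to 0.177% and 0.0780% to 0.196%. An antisense gene, Gm47118, shares 35 exon bases with Edn1. Closest in profile were Gdf15, Tshz3, Itgb6, Nes and Myh11, at root-mean-square differences of 0.180 to 0.250 against a median of 0.561.

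Edn2 and Edn3 were near the detection limit. Edn2 (NM_007902, mm10 chr4:120161206-120167360, plus strand) was at 0.297, 0.273, 1.74 and 0.421 CPM in KO-labelled tumours and at 1.20, 1.96, 2.73 and 1.12 CPM in the WT-labelled tumours, from 4 to 61 counts per library. Of the KO-labelled tumours, 3 were below every WT-labelled tumour, and replicate 3 was within their range. The means were 0.682 ± 0.706 and 1.75 ± 0.756 CPM, with a log2 fold change of −1.40 ± 0.62. It ran from −2.37 to −1.10 as each tumour was left out. The −2.37 came without replicate 3 labelled KO, the one that overlapped the WT-labelled tumours. With limma on log2(FPKM + 1) the log2 fold change was −0.46. Edn2 passed the filter at 0.53 CPM through all 4 WT-labelled tumours and 1 labelled KO. Edn3 (NM_007903, mm10 chr2:174760619-174784042, plus strand) had 3 to 18 counts per library and was not tested in this contrast. It stood at 0.594, 0.205, 0.347 and 0.281 CPM and at 0.938, 0.186, 0.672 and 0.648 CPM, in the same order of groups.

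Receptor transcripts exceeded ligand transcripts in all KO-labelled tumours and in 3 of the 4 WT-labelled ones. Summed per kilobase, the 3 ligands reached 3.32 to 4.37 CPM per kb in KO-labelled tumours and 4.40 to 9.87 CPM per kb in the WT-labelled tumours. The summed receptors were 18.9 to 37.5 times that in KO-labelled tumours and 0.557 to 2.94 times in the WT-labelled tumours. Ednrb was 98.9% to 99.5% and 88.8% to 96.6% of the receptor sum, so this ratio carries the Ednrb difference again. Edn1 made up 63.6% to 92.4% and 71.3% to 84.2% of the ligand sum.

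Ece1, the endothelin-converting enzyme that cuts the ligand precursors at the cell surface and in vesicles (NM_199307, mm10 chr4:137862237-137965229, plus strand), was among the more abundant genes. It was measured at 297, 199, 189 and 211 CPM in KO-labelled tumours and at 314, 201, 301 and 298 CPM in the WT-labelled tumours. Replicate 1 was the highest of the KO-labelled tumours and replicate 2 the lowest of the WT-labelled tumours, and through the latter the groups overlapped. The means were 224 ± 49.5 and 279 ± 52.3 CPM, with a log2 fold change of −0.32 ± 0.19. Those same 2 tumours had the most acinar RNA of their groups, where acinar markers, led by Ctrb1, Pnliprp1 and Prss2, summed to 2248 to 49990 CPM and 508 to 11190 CPM (Amy2a5 had 0 counts in all tumours). Without both tumours, a choice made after seeing the data, the log2 fold change of Ece1 was −0.61, a move that follows from leaving out the highest KO-labelled and the lowest WT-labelled value. With library totals alone it was −0.50, or −0.33 relative to the median gene, and scaled to the epithelial list it was 0.52, or −0.36 relative to the median gene. The part of acinar RNA in these values was not tested.

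The row labelled Ece2 does not measure the second converting enzyme directly. It counts transcript NM_025462 (mm10 chr16:20611601-20618869, plus strand), which RefSeq and GENCODE M21 assign to Eef1akmt4, a gene of 3 exons. This transcript shares 0 exon bases with the annotated Ece2 gene, which in RefSeq starts 10981 bases after its end, at chr16:20629851-20645915. It shares 495 exon bases with a read-through transcript that joins both genes (Gm49333) and 143 with Alg3 on the opposite strand. The row was at 13.2, 11.7, 10.97 and 9.83 CPM in KO-labelled tumours and at 7.81, 11.2, 10.2 and 11.4 CPM in the WT-labelled tumours, with overlapping groups. Its log2 fold change was 0.17 ± 0.16, and it was −0.02 with library totals alone.

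Compared per kilobase, Ece1 was the most abundant member in WT-labelled tumours and Ednrb in KO-labelled tumours. The median over the 8 tumours was 52.9 CPM per kb for Ece1, 40.4 for Ednrb, 11.3 for the row labelled Ece2, 3.38 for Edn1, 0.796 for Edn2, 0.600 for Ednra and 0.151 for Edn3. These medians stood at percentiles 91.1, 87.8, 56.1, 28.4, 11.3, 9.02 and 1.1 of the tested genes. The place of Ednrb depended on the group, so its pooled median is a level that no tumour had. Ednrb was at 67.5 to 124 CPM per kb in KO-labelled tumours, above the 39.3 to 61.9 of Ece1, and at 4.88 to 13.4 in WT-labelled tumours, below the 41.9 to 65.6 of Ece1. Its median in WT-labelled tumours, 9.26 CPM per kb, was also below the 10.9 of the row labelled Ece2, and in replicate 3 Ednrb was below Edn1, at 4.88 against 7.78. Edn2 and Ednra, neighbours in this order, overlapped in KO-labelled tumours, at 0.187 to 1.19 and 0.399 to 0.938 CPM per kb. In WT-labelled tumours Edn2 was the higher of that pair, at 0.769 to 1.88 against 0.444 to 0.617. The deposited FPKM table kept another Ednrb transcript, of another length, so its Ednrb values are on another base.

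**Figure D4:**
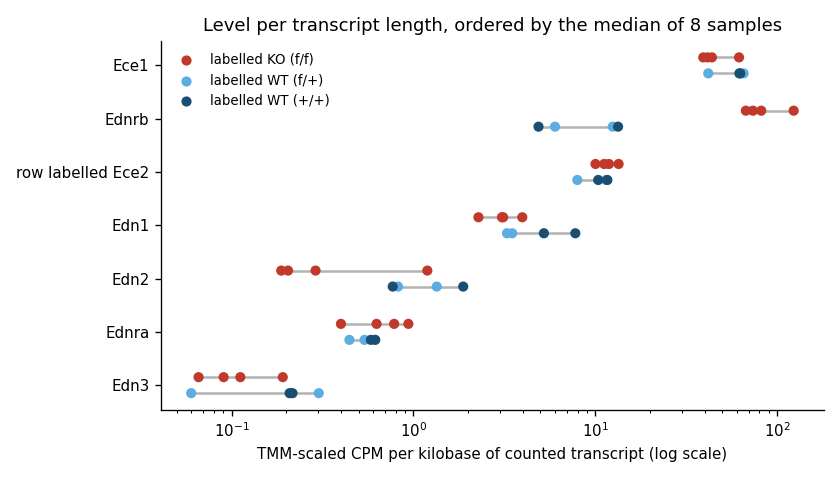
TMM-scaled CPM per kilobase of counted transcript (log axis) for the 7 members in each KO-labelled tumour or WT, ordered by the median over 8 tumours. Ednrb lies above Ece1 in all KO-labelled tumours and below it in all labelled WT, while Edn3 stays between 0.0599 and 0.302.

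The 4 control tumours gave the one test of the members that their choice did not use, between f/+ and +/+ tumours (n = 2 each, in 1 edgeR fit of the 3 genotypes). Of 15284 genes tested, 1 was called (0.00654%) and 782 had an unadjusted p under 0.05, while DESeq2 called 54. It was BC018473, named after its value was seen, at a mean of 75.8 CPM in f/+ and 0 counts in +/+ tumours. Among the 7 members, 0 were called by edgeR, with 1 at an unadjusted p under 0.05, and 0 by DESeq2, again with 1. That member was Edn1, at a mean of 7.22 CPM in f/+ and 13.9 CPM in +/+ tumours, with a log2 fold change of −0.94 ± 0.30 (95% interval −1.63 to −0.26, edgeR unadjusted p = 0.0134, adjusted p = 0.873). Both f/+ values lay below both +/+ values. For Ednrb the log2 fold change was 0.02, with a 95% interval of −1.19 to 1.24. With so few tumours a missed threshold does not show that the genotypes had the same levels.

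The wider pathway was followed in 4 lists of genes. Of 69 tested genes on the lists, 12 rose and 6 fell, beside 11.1% of all tested genes that rose and 10.8% that fell. With library totals alone the split was 10 higher and 11 lower, and with limma on log2(FPKM + 1) it was 8 higher and 10 lower. G proteins and their regulators, which relay and end the signal of endothelin receptors, held most of the rises, with 8 of 20 tested genes higher, 1 lower and a median log2 fold change of 0.19. Arrb2, an arrestin that uncouples receptors, stood at 292 ± 15.6 CPM in KO-labelled and 175 ± 29.6 CPM in WT-labelled tumours and rose by 0.74 ± 0.12 on the log2 scale (adjusted p = 0.00638 by edgeR). Gna12, a G protein alpha subunit, rose by 0.75 ± 0.13 on the log2 scale, and Grk5, a receptor kinase, by 0.998 ± 0.18. Gnai1, an inhibitory alpha subunit, had a log2 fold change of −0.87 ± 0.19 and fell. Macrophage markers rose and epithelial markers fell in the same tumours, and their part in these changes was not tested.

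Calls in the other 3 lists went in both directions. Of 20 tested second-messenger and other downstream effectors, 2 rose and 2 fell, with a median log2 fold change of 0.16. Itpr1 and Itpr3, both calcium channels opened by inositol trisphosphate, moved in opposite directions, at 0.63 ± 0.12 and −0.83 ± 0.15. Prkcb, a protein kinase C gene, rose by 0.95 ± 0.24, and Arhgef12, a guanine nucleotide exchange factor, had −0.53 ± 0.14. Of 7 tested peptide-processing and peptide-degrading enzymes, Ctsa, the lysosomal protease cathepsin A, rose from 568 ± 88.3 to 988 ± 57.2 CPM (0.80 ± 0.13). Pcsk6, a furin-type protease, fell from 46.6 ± 21.2 to 23.9 ± 2.57 CPM, and the other 5 were not called, with a list median of 0.43. Of 22 other vasoactive peptide ligands and receptors, Calcrl, the receptor for calcitonin gene-related peptide and adrenomedullin, rose by 1.21 ± 0.22. Ace, the angiotensin-converting enzyme, had −0.98 ± 0.16 and Ramp1, a partner of Calcrl, −0.59 ± 0.16, and both fell, while the list median was 0.34. Not all of these calls held as tumours were left out one at a time. The call of Pcsk6 was lost without replicate 1, 2 or 3 labelled KO or replicate 1 labelled WT (highest edgeR adjusted p = 0.0953). That of Ramp1 was lost without replicate 1, 2 or 3 labelled KO or 1, 3 or 4 labelled WT (0.0757), that of Arhgef12 without 1, 2 or 4 of either group (0.0934), and that of Prkcb without 2 or 4 labelled KO or 2 labelled WT (0.0728). Against the +/+ tumours alone, none of the 6 falls kept its call, among them Ace (−0.80, edgeR adjusted p = 0.0513), Itpr3 (−0.77, 0.0568) and Gnai1 (−0.77, 0.0984). Some of the rises also lost their call in that fit, which called fewer genes in all. The call of Gnai1 was also lost without the most acinar tumour of each group (−0.90, edgeR adjusted p = 0.0558), and that of Itpr1 with limma on log2(FPKM + 0.1) (0.45, adjusted p = 0.0548). Scaled to the epithelial list, which lifted the median gene to 0.88, the values of Gnai1, Itpr3, Arhgef12 and Ramp1 were above 0, and relative to that median they were −0.85, −0.86, −0.54 and −0.64.

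**Figure D5:**
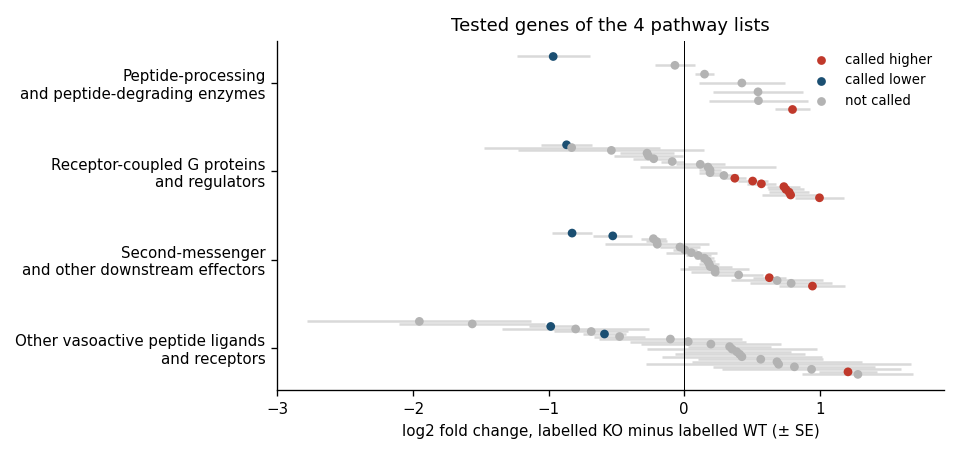
Log2 fold change, labelled KO minus labelled WT (x axis), for each tested gene of the 4 pathway lists, with bars for ± SE, called genes in red (higher) or blue (lower) and the others in grey. The list medians given in the text lie between 0.16 and 0.43, and called genes are found on both sides of 0 in each list.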

How the data were processed

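The authors deposited raw counts and FPKM values; per the file headers both came from HOMER's analyzeRepeats.pl on exons of mm10 RefSeq transcripts (plus strand, genes condensed to 1 transcript), with FPKM normalized to 1000000. The submitters' processing notes also name FastQC 0.11.2, STAR 2.4.0k and edgeR 3.6.8, with no roles. Library strandedness is not given in the sources used here.

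The main test on the counts was edgeR 4.0.16 under R 4.3.3 (quasi-likelihood fit and test, TMM, filterByExpr with minimum count 10 and minimum total 15; 14728 genes), with Benjamini-Hochberg adjustment over all genes and a threshold of 0.05. DESeq2 1.42.0 and limma 3.58.1 on the deposited FPKM (log2 with a pseudocount of 1 or 0.1) were alternatives. TMM factors were 0.890 to 0.965 in KO-labelled and 1.05 to 1.10 in WT-labelled tumours. Tested on simulated data of 14728 genes, the test of KO against WT called 50 of 100 genes changed by 1 and 83 of 100 changed by 2 on the log2 scale. The test of f/+ against +/+ called fewer, 30 of 100 and 75 of 100. Unchanged genes called numbered 2 and 10, in the same order of tests. No genes beyond these were changed in the simulation, while 21.8% of genes were called between KO-labelled and WT-labelled tumours. The simulated rates therefore need not hold for the real data.

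The members and lists were chosen with earlier results of these data known. The genes named were the 7 members, Lifr, up to 3 called genes per direction from each pathway list (smallest p), the 3 most abundant of each marker list with any at 0 counts throughout, and the 5 closest profiles to Ednrb, Ednra and Edn1. Epcam, as the antigen of the sort, and Sox10 and Cdh19 were added. Replicate numbers follow the listing order. Per the labels each library is a separate tumour. A further allele shared by all mice is not reported here.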

Additional observations from a re-analysis of the deposited data

Results flagged for a closer look

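Single tumours stood away from the other 3 of their group for 2 of the 7 members, by a test of the gap to the nearest value that chance meets in about 1 of 20 groups. Each member was looked at in both groups, so gaps of this size can arise by chance. Edn2 in replicate 3 labelled KO was at 1.74 CPM, with the nearest of the other tumours labelled KO at 0.421 CPM. These levels rest on 25 and 9 counts. Ece1 in replicate 2 labelled WT was at 201 CPM, with the nearest of the others at 298 CPM.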

How the results depend on the processing

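No paired analysis was possible because the replicate numbers only follow the listing order. The log2 fold change of Ednrb was 2.95 to 4.09 over the 18 alternatives run. The number of genes called between the tumours labelled KO and WT was 1755 to 3241 as each tumour was left out, lowest without replicate 2 labelled KO and 2077 without replicate 3 labelled WT. It was 1926 with only f/+ and 1106 with only +/+ controls, 1892 without the most acinar tumour of each group (chosen after seeing the data), and 11023 when scaled to the epithelial list. Pathway list calls numbered 13 to 18 as each tumour was left out, 49 with epithelial scaling and 8 with only +/+ controls. With only +/+ controls the 6 genes that fell all lost their call, and some of those that rose lost theirs too. Between f/+ and +/+ tumours 54 genes were called by DESeq2, 4 with epithelial scaling and 2 from the 4 control tumours alone. Signs turned with epithelial scaling for Edn1 (0.18), Ece1 (0.52), Ramp1 (0.24), Gnai1 (0.026), Itpr3 (0.020) and Arhgef12 (0.34), a scaling that lifts all genes by construction where the epithelial list fell. The row labelled Ece2 turned to −0.017 with library totals and to −0.0031 and −0.0016 with limma on log2 FPKM. Library totals alone moved the median of all genes to −0.17. In the deposited FPKM the median levels were 0.339 for Ednra, 28.6 for Ece1 and 6.18 for the row labelled Ece2. Edn2 and Edn3 are limited by depth, with at most 61 and 18 counts in a library.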
